A study of Mus musculus with 24 samples.

Results

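Thbs1, Amotl2, Ankrd1, Ajuba, Anxa1, Clu, Ly6a, Il33 and Msln are 9 of the 54146 gene rows counted in every library, and they bring together targets of the transcriptional coactivator YAP with genes of regenerating intestinal epithelium. They were chosen on values measured in these same libraries, so their levels are given as a description and nothing is read from tests on them. Companion lists of related genes, which are counted below beside all genes tested, were also chosen with results of these libraries in view. YAP and its relative TAZ (Wwtr1) enter the nucleus when the kinases of the Hippo pathway, MST (Stk3, Stk4) and LATS, are inactive, and bind the TEAD factors on DNA. In the intestine, YAP activity is known for its part in repair after injury, when crypt cells lose stem cell genes such as Lgr5 for a time and take up a fetal-like programme marked by Ly6a (Sca-1), Clu and annexins. The 9 genes lie on 6 chromosomes of the mouse build GRCm38, with Ankrd1 (36111961 to 36120099), Anxa1 (20373428 to 20390944) and Il33 (29925114 to 29960718) all on chromosome 19.

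RNA sequencing was done on mouse intestinal organoids, which are epithelial cultures grown from crypts, in 8 groups of 3 libraries. The genotype experiment held organoids labelled wild type (WT), Cdk8 knockout, Cdk19 knockout and double knockout and addressed what loss of the Mediator kinases CDK8 and CDK19, alone or together, does to expression. Its organoids came from Cdk8lox/lox mice, with or without Villin-CreERT2, an inducible Cre recombinase driven by an epithelial promoter, and were given 600 nM 4-hydroxytamoxifen for 7 days. Cdk19 had been disrupted with a CRISPR guide to its first exon, carried by a lentivirus and followed by puromycin and expansion of single organoids, so the Cdk19 and double knockout lines derive from single organoids. The study describes these steps only for lines with Cdk19 disrupted, so the steps and loss of Cdk19 cannot be told apart. The Cre transgene was in the Cdk8 knockout and double knockout lines and not in the WT or Cdk19 knockout lines, so Cre and loss of Cdk8 cannot be told apart. The inhibitor experiment treated WT organoids with the CDK8/19 inhibitor Senexin B at 10 µM, or with its solvent DMSO, for 16 h or 24 h. The labels of the genotype libraries name 4T1, a mammary carcinoma line, as cell type beside a tissue given as intestinal organoids.

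The genotype libraries held 14636861 to 15473180 reads on genes and the inhibitor libraries 27075937 to 28405118. Reads fell on both strands alike in the genotype libraries, where 49.55% to 49.74% of reads on genes were in the column used, and mostly on 1 strand in the inhibitor libraries, at 87.9% to 90.54%. The experiments were therefore normalised and tested apart, and levels are not compared between them. Normalised counts are read counts divided by the library's effective size and scaled to the mean effective size of the experiment.

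The targeted genes were read first. Normalised counts of Cdk19 were 711, 749 and 726 in the WT libraries, 729, 420.1 and 423 in those labelled Cdk19 knockout, and 403, 356 and 773 in those labelled double knockout. Replicate 1 of the Cdk19 knockout and replicate 3 of the double knockout therefore lay at the WT level of Cdk19 and are called doubtful here. Where a fold change of the 9 genes or a count of called genes that rests on them is printed, it is given with and without both. Fold changes of the 9 genes between the double and the Cdk19 knockout are not printed. Normalised counts of Cdk8 were 535 to 646 in the WT libraries, 634 to 857 in the Cdk8 knockout and 645 to 707 in the double knockout, so its count did not mark the deletion. Esr1, whose ligand-binding domain is part of CreERT2 in its human form, had 286 to 393 normalised counts in the 6 libraries of Cre lines and 1.01 to 6.26 in the other 6 genotype libraries.

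The libraries were read as intestinal epithelium by the markers. All 10 epithelial markers, among them Epcam, Vil1 and Cdx2, had counts in each library, and they summed to 138100 to 180500 normalised counts in the genotype libraries and 310000 to 398800 in the inhibitor libraries. By edgeR 2 of the 10 rose and 1 fell in the double knockout against WT, beside 9.41% and 7.90% of all genes. Of these only Cdh17 passed in each fit that left out 1 library. Without both doubtful libraries 3 rose and 2 fell, beside 10.3% and 8.69%. In the double against the Cdk19 knockout 3 rose and 1 fell, beside 14.4% and 11.0%, or 15.1% and 13.4% without both. With Senexin B 2 rose at 16 h, beside 4.36%, and 4 rose and 1 fell at 24 h, beside 14.8% and 12.7%. In the genotype libraries 10 fibroblast and smooth muscle markers summed to 214 to 478 with Vim as the most abundant and Col3a1, Lum and Thy1 at 0. In the inhibitor libraries the same list summed to 146 to 329, with Vim again most abundant and Lum and Thy1 at 0. Immune cell markers summed to 36.5 to 82.6 and to 61.9 to 116, mostly Cd68, with Adgre1 at 0 in the inhibitor libraries. Endothelial markers summed to 36.7 to 82.7 and to 46.8 to 136, with Vwf as the most abundant except in the double knockout, where Pecam1 was.

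In the Cdk8 knockout, Thbs1, Amotl2, Ankrd1, Ajuba, Anxa1, Clu, Il33 and Msln had every library above every WT library, and Ly6a did not. The share of all genes with such a separation was not counted. Nothing is read from the separation, since the genes were chosen on these values. Thbs1 encodes thrombospondin 1, a secreted matrix glycoprotein and a YAP target. Its normalised counts were 551, 547 and 526 in the WT libraries, 1912, 1307 and 1925 in the Cdk8 knockout, 577, 543.5 and 568 in the Cdk19 knockout, and 949.7, 1753 and 2385 in the double knockout. The WT and Cdk19 knockout libraries lay close together, and the libraries of both other groups lay above all of them. The log2 fold change against WT was 1.66 (SE 0.258, n = 3 per group) in the Cdk8 knockout, 0.06 (SE 0.257) in the Cdk19 knockout and 1.65 (SE 0.258) in the double knockout. In whole-organoid RNA, more cells that express a gene and more RNA per cell cannot be told apart.

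Amotl2 and Ajuba encode proteins that feed back on the pathway: angiomotin-like 2 binds YAP at cell junctions, and the LIM protein Ajuba restrains LATS kinases. Normalised counts of Amotl2 were 306, 334 and 393 in WT, 449, 412 and 538 in the Cdk8 knockout, 418, 394 and 366 in the Cdk19 knockout, and 308, 531 and 630.3 in the double knockout. Its log2 fold change against WT was 0.44 (SE 0.210) in the Cdk8 knockout and 0.51 (SE 0.210) in the double knockout, where replicate 1 lay within the WT range. Normalised counts of Ajuba were 489.8, 495 and 561 in WT, 837, 616 and 1005 in the Cdk8 knockout, 423, 399.6 and 403 in the Cdk19 knockout, and 488, 765 and 925 in the double knockout. The Cdk19 knockout libraries all lay below WT and the Cdk8 knockout libraries all above it, while replicate 1 of the double knockout lay just under the WT range and its other libraries above it. The log2 fold changes of Ajuba against WT were 0.67 (SE 0.208), −0.33 (SE 0.211) and 0.49 (SE 0.208) for the Cdk8, Cdk19 and double knockouts.

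Ankrd1, a nuclear ankyrin repeat protein and a much used YAP target, was close to the limit of detection in WT. Its normalised counts were 4.02, 2.05 and 4.18 in WT, 50.4, 26.5 and 28.8 in the Cdk8 knockout, 2.02, 14.6 and 9.87 in the Cdk19 knockout, and 8.16, 13.8 and 25.3 in the double knockout. The double knockout libraries lay between the groups, above every WT library and below every Cdk8 knockout library. Against WT the log2 fold change was 3.32 (SE 0.627) in the Cdk8 knockout and 2.17 (SE 0.666) in the double knockout. In the Cdk19 knockout it was 1.34 (SE 0.711), or 0.79 without its replicate 2. Between the double and the Cdk8 knockout it was −1.15 (SE 0.507), or −1.66 (SE 0.431) without both doubtful libraries.

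Among the regenerative genes, Anxa1 encodes annexin A1, a phospholipid-binding protein that limits inflammation. Its normalised counts were 402, 470.4 and 301 in WT, 1369, 824 and 1975 in the Cdk8 knockout, 389.9, 800.2 and 699 in the Cdk19 knockout, and 688, 1686 and 1996 in the double knockout. Both groups with Cre lay above WT, and the Cdk19 knockout overlapped WT through replicate 1, the library with WT levels of Cdk19. Anxa1 had a log2 fold change against WT of 1.83 (SE 0.408) in the Cdk8 knockout, 0.69 (SE 0.404) in the Cdk19 knockout and 1.90 (SE 0.408) in the double knockout. Msln encodes mesothelin, a surface protein of mesothelium and of some injured or fetal epithelia. Its normalised counts were 339, 487 and 529 in WT, 1103, 706 and 1171 in the Cdk8 knockout, 269, 407 and 463 in the Cdk19 knockout, and 631, 1188 and 912 in the double knockout. Its log2 fold change against WT was 1.14 (SE 0.271) in the Cdk8 knockout, −0.25 (SE 0.274) in the Cdk19 knockout and 1.01 (SE 0.271) in the double knockout, with every library of both Cre groups above WT.

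Clu and Ly6a overlapped WT in the double knockout. Clu encodes the secreted chaperone clusterin, a marker of the damage-induced revival stem cell. Its normalised counts were 3401, 3977 and 4683 in WT, 10490, 5875 and 6039 in the Cdk8 knockout, 3756, 3000 and 3133 in the Cdk19 knockout, and 2193, 4029 and 4285 in the double knockout. The Cdk8 knockout libraries stood above all others, and the double knockout overlapped WT. Clu had a log2 fold change of 0.89 (SE 0.262) between the Cdk8 knockout and WT, which was 0.57 without replicate 1 of the Cdk8 knockout, the highest library. It was −0.20 (SE 0.260) between the double knockout and WT, which turned to 0.06 without replicate 1 of the double knockout. Between the double and the Cdk8 knockout it was −1.09 (SE 0.263), which was −1.25 (SE 0.295) without both doubtful libraries. Normalised counts of Ly6a, the surface antigen Sca-1, were 127, 164 and 222 in WT, 403, 212 and 239 in the Cdk8 knockout, 227, 189 and 168 in the Cdk19 knockout, and 69.4, 292 and 125 in the double knockout. All 4 groups overlapped. The log2 fold change between double knockout and WT was −0.08 (SE 0.421), or 0.075 (SE 0.481) without both doubtful libraries. It changed sign in 5 of 14 alternative fits.

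Il33, a nuclear alarmin released by damaged epithelium, was rare in WT and in the Cdk19 knockout. Its normalised counts were 2.01, 6.16 and 8.35 in WT, 12.1, 27.5 and 65.3 in the Cdk8 knockout, 6.05, 3.89 and 10.9 in the Cdk19 knockout, and 76.5, 66.0 and 65.1 in the double knockout. The double knockout libraries were close to each other and stood far above WT, whereas the Cdk8 knockout libraries spread widely. Il33 had a log2 fold change against WT of 2.65 (SE 0.618) in the Cdk8 knockout, which was 1.81 without replicate 3, the highest library, and of 3.63 (SE 0.603) in the double knockout. Between the double and the Cdk8 knockout it was 0.98 (SE 0.484). This was 1.81 without replicate 3 of the Cdk8 knockout, 0.57 without its replicate 1 and 1.03 (SE 0.562) without both doubtful libraries.

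**Figure D1:**
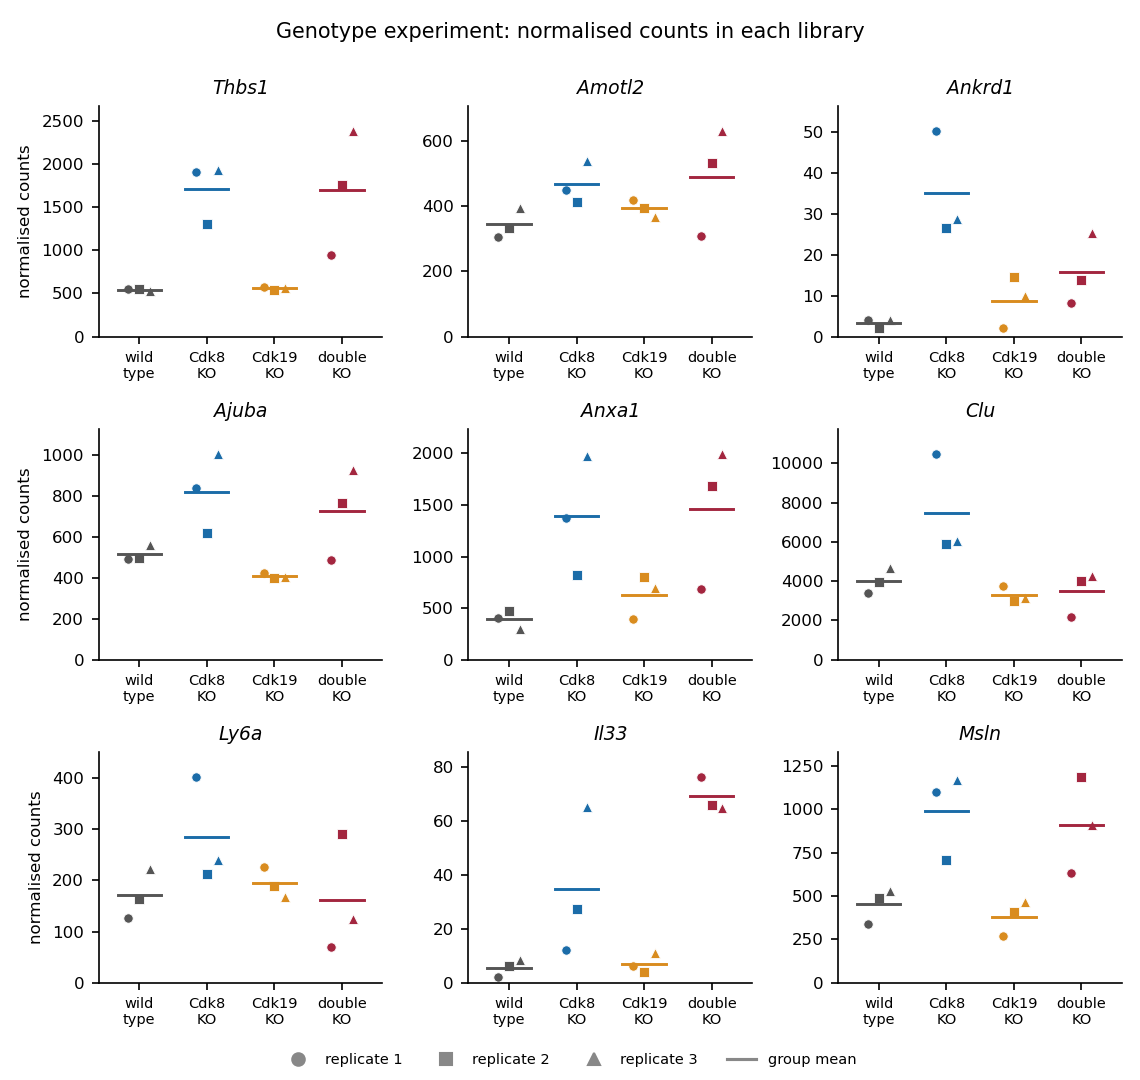
Normalised counts (vertical axes, linear from 0) of the 9 genes in each library of the genotype experiment, with groups along the horizontal axis, 1 point per library shaped by replicate number and a bar at the mean of 3 libraries. Thbs1 lay at 526 to 577 in all 6 WT and Cdk19 knockout libraries and at 949.7 to 2385 in the other 6, and Clu was highest in the Cdk8 knockout, at 5875 to 10490.

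Replicate 2 was the lowest Cdk8 knockout library for 8 of the 9 genes, and replicate 1 was the lowest double knockout library for 8 of the 9, with Il33 as the exception in both. Upk3b, a mesothelial marker, had its highest counts in the same libraries, at 434 normalised counts in replicate 2 of the Cdk8 knockout and 480.4 in replicate 1 of the double knockout, against 42.7 to 243 in the other 10 genotype libraries. Upk3b made up 94.8% to 96.4% of the summed mesothelial markers in the 4 genotype groups. These sums were 133, 444 and 54.7 normalised counts in the Cdk8 knockout and 488, 101 and 53.4 in the double knockout, and Wt1 had no count. Its part in the spread was not tested. With both libraries at the WT level of Cdk19 left out, the log2 fold change of the double knockout against WT was 1.32 (SE 0.227) for Thbs1, 1.65 (SE 0.544) for Ankrd1, 1.60 (SE 0.389) for Anxa1, 3.67 (SE 0.683) for Il33 and 1.01 (SE 0.281) for Msln. For Amotl2 and Ajuba it was 0.28 in both without them (SE 0.205 and 0.209), and for Clu it was −0.37 (SE 0.286). That of the Cdk19 knockout against WT was then 0.05 (SE 0.234) for Thbs1, 1.82 (SE 0.534) for Ankrd1, 0.95 (SE 0.393) for Anxa1, −0.35 (SE 0.215) for Ajuba and −0.04 (SE 0.291) for Msln.

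The other genes of the programme were read from 2 lists, 20 further YAP/TAZ targets and 16 further genes of regenerative epithelium, of which 17 and 14 had enough counts for the edgeR test in the genotype experiment. Both lists were chosen with results of these libraries in view. Their counts, medians and p-values are therefore a description in every comparison, and cannot serve as separate evidence for the programme. In the Cdk8 knockout, 9 of the 31 companion genes rose against WT and none fell, beside 2.79% of all 15602 genes tested that rose and 2.36% that fell. They were 3 YAP/TAZ targets and 6 regenerative genes, and the median log2 fold change of the 31 was 0.94 against 0.01 over all genes. Of the 9 members, 5 passed the same test as higher, from which nothing is read since they were chosen on these values. Ccn1, a secreted matricellular protein and a standard YAP target, was at normalised counts of 139, 158 and 162 in WT and 506, 292 and 443 in the Cdk8 knockout. It rose in 3 of 3 libraries, with a log2 fold change of 1.43 (SE 0.267, adjusted p = 0.0116). Ccn2, a close relative of Ccn1, was at normalised counts of 29.2, 32.9 and 0 in WT and 161, 73.4 and 207 in the Cdk8 knockout, a log2 fold change of 2.82 (SE 0.723, adjusted p = 0.0452).

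The count of 9 depended on single libraries. It was 1 without replicate 1 or without replicate 2 of WT, 3 without replicate 3 of WT, and 4 without replicate 1 or without replicate 3 of the Cdk8 knockout. The calls over all genes fell in the same fits, from 804 to 196, 257, 332, 464 and 417 in that order. The adjusted p of Ccn1 reached 0.067 among the 6 fits that left out 1 library, missing the threshold without replicate 1 or replicate 2 of WT, and that of Ccn2 reached 0.128, passing only without replicate 2 of the Cdk8 knockout. Under 3 of 6 other settings Ccn2 also missed the threshold, with an adjusted p of up to 0.0732.

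In the double knockout, 12 of the 31 companion genes rose against WT and none fell, beside 9.41% of all genes that rose and 7.90% that fell. The 12 were 6 YAP/TAZ targets and 6 regenerative genes, and the median log2 fold change of the 31 was 0.47 against −0.01 over all genes. Of the 9 members, 5 passed as higher, or 4 without both libraries at the WT level of Cdk19, from which nothing is read. Fjx1, a relative of a fly Golgi kinase that acts on the cadherins Fat and Dachsous, was at normalised counts of 26.2, 18.5 and 25.1 in WT and 81.6, 178 and 148 in the double knockout. It rose by a log2 fold change of 2.54 (SE 0.399, adjusted p = 0.00186) in 3 of 3 libraries. Anxa8, an annexin of injured epithelium, was at normalised counts of 81.5, 82.2 and 96.0 in WT and 237, 551 and 463 in the double knockout. Its log2 fold change was 2.27 (SE 0.455, adjusted p = 0.00629), also with 3 of 3 libraries higher. Ccn1 had 263, 419.5 and 502 normalised counts in the double knockout and rose by 1.37 on the log2 scale (SE 0.267, adjusted p = 0.00547), higher in 3 of 3 libraries. Anxa3, Anxa8, Ccn1, Dock5 and Fjx1 passed in each fit that left out 1 library. The count was 5 without replicate 2 of WT or replicate 2 of the double knockout, 6 without replicate 1 of WT and 7 without replicate 3 of WT, while the calls over all genes went from 2700 to 1454, 1917, 1348 and 1795 in that order. Without both libraries at the WT level of Cdk19 it was 11, of which 10 higher and 1 lower, beside 10.3% and 8.69% of all genes. Acta2, a smooth muscle marker and 1 of 3 fibroblast and smooth muscle markers tested, also rose in the double knockout, from 1.01, 2.05 and 1.04 normalised counts in WT to 6.12, 23.6 and 18.5 (log2 fold change 3.44, SE 1.03, adjusted p = 0.0384), and passed in 1 of the 6 fits that left out 1 library and not without both libraries at the WT level of Cdk19. The summed list, mostly Vim, was at 312, 371 and 245 in WT and 214, 233 and 277 in the double knockout. Its part in the change of the companion genes was not tested.

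In the Cdk19 knockout no companion gene passed the edgeR test, and 0% of all genes did. At an unadjusted p under 0.05 there were 11 companion genes, beside 10.8% of all genes, and DESeq2 called 1, beside 2.01%. Ccn1 had 157, 272 and 204 normalised counts there, which overlapped WT through replicate 1. Without that library, which held the WT level of Cdk19, 4 companion genes passed, 1 higher and 3 lower, beside 1.77% and 1.50% of all genes, and 5 passed without both libraries of that kind, 2 higher and 3 lower, beside 2.17% and 2.04%.

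Direct comparison of the knockouts addressed whether loss of Cdk19, together with the lentivirus, puromycin and expansion of single organoids, adds to loss of Cdk8. Between the double and the Cdk8 knockout no companion gene passed the edgeR test, beside 0.0256% of all genes. There were 8 at an unadjusted p under 0.05, beside 15.5% of all genes, and 1 by DESeq2, beside 2.66%. Without replicate 3 of the Cdk8 knockout 4 passed by edgeR, beside 5.28%, and 1 passed without both doubtful libraries, beside 0.139%. The test of departure from additivity of both losses was passed by no companion gene and by 0.0256% of all genes. Here 12 companion genes had an unadjusted p under 0.05, beside 14.5% of all genes, and DESeq2 called 2, beside 3.17%. In this test edgeR called 5 without replicate 1 of the Cdk19 knockout (2.93% of all genes), 2 without replicate 3 of the Cdk8 knockout (2.47%) and 5 without both doubtful libraries (4.60%). Between the double and the Cdk19 knockout, groups that differ in Cdk8 and in Cre, 17 of the 31 companion genes rose and 2 fell, beside 14.4% and 11.0% of all genes, or 13 and 4 without both doubtful libraries, beside 15.1% and 13.4%. Of 3 immune cell markers tested, Ptprc (log2 fold change 3.31, SE 0.912, adjusted p = 0.0197) and Itgam (2.44, SE 0.540, adjusted p = 0.00667) also rose, as did Acta2 (2.95, SE 0.958, adjusted p = 0.0407). Itgam passed in each fit that left out 1 library, Ptprc in 4 of 6, missing without replicate 2 or replicate 3 of the Cdk19 knockout, and Acta2 in 1 of 6, that without replicate 1 of the double knockout. Without both doubtful libraries Ptprc and Itgam passed and Acta2 did not, and Pdgfrb, another fibroblast and smooth muscle marker, fell. The immune list, mostly Cd68, summed to 55.4, 37.9 and 36.5 normalised counts in the Cdk19 knockout and 82.6, 63.0 and 72.8 in the double knockout, and the fibroblast and smooth muscle list to 257, 308 and 348 and to 214, 233 and 277. Their part in the companion counts was not tested. Of the 9 members, 5 passed as higher there, or 3 without both doubtful libraries, from which nothing is read. S100a6, a calcium-binding protein of fetal-like epithelium, had a log2 fold change of 3.43 (SE 0.762, adjusted p = 0.00685), and Anxa8 one of 2.96 (SE 0.476, adjusted p = 0.00109). Both passed in each fit that left out 1 library. Ly6c1, a relative of Ly6a, fell by 1.69 on the log2 scale (SE 0.493, adjusted p = 0.0257), from 10.1, 17.5 and 30.6 normalised counts in the Cdk19 knockout to 5.10, 3.94 and 8.74 in the double knockout. Neither of the genes that fell passed without every library in turn, and no gene fell in the fits without replicate 2 or replicate 3 of the Cdk19 knockout or without replicate 1 or replicate 2 of the double knockout.

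In the inhibitor experiment the question was whether blocking both kinases for hours gives a like change in WT organoids. At 16 h, Thbs1, Amotl2, Ajuba, Anxa1, Clu and Ly6a had every Senexin B library above every DMSO library, and Il33 and Msln overlapped. Nothing is read from this either, and the share of all genes with such a separation was not counted. Thbs1 had 166, 201 and 307 normalised counts with DMSO and 1134, 878 and 1137 with Senexin B at 16 h, and 509, 435 and 449 with DMSO and 2851, 1295 and 1308 with Senexin B at 24 h. The treated libraries lay above their DMSO controls at both times, and the DMSO libraries of 24 h lay above those of 16 h. The log2 fold change of Senexin B against DMSO was 2.22 (SE 0.288, n = 3 per group) at 16 h and 1.97 (SE 0.271) at 24 h, where it was 1.49 without replicate 1 of Senexin B. Between the DMSO groups, 24 h against 16 h, it was 1.05 (SE 0.292). Each comparison at 24 h and at 16 h uses DMSO libraries of its own time, and the comparison of the DMSO groups shares them with both. Same-numbered DMSO and Senexin B libraries deviated together, and the inhibitor fits given here leave that pairing out unless a replicate block is named.

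The feedback genes had smaller fold changes than Thbs1. Amotl2 had 533, 454 and 448 normalised counts with DMSO and 603, 589.9 and 665 with Senexin B at 16 h, and 724, 599.6 and 661 with DMSO and 931, 809.5 and 826 with Senexin B at 24 h. Ajuba had 969.5, 676 and 708 normalised counts with DMSO and 1322, 1124 and 1284 with Senexin B at 16 h, and 1240, 991.5 and 985 with DMSO and 1937, 1917 and 1787 with Senexin B at 24 h. Treated libraries lay above their controls for both genes at both times. The log2 fold change of Amotl2 was 0.37 at both times (SE 0.0981 and 0.0956), and that of Ajuba was 0.66 (SE 0.127) at 16 h and 0.81 (SE 0.124) at 24 h. Ankrd1 had at most 5.14 normalised counts in any inhibitor library and did not pass the filter on low counts, so 8 of the 9 genes were measured there and no fold change is given for it.

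Of the regenerative genes, Clu and Ly6a were the most abundant per length in the inhibitor libraries. Clu had 3084, 2619 and 3095 normalised counts with DMSO and 4935, 4442 and 5115 with Senexin B at 16 h, and 4806, 3786 and 3844 with DMSO and 8613, 10370 and 10670 with Senexin B at 24 h. Its log2 fold change was 0.72 (SE 0.108) at 16 h and 1.25 (SE 0.108) at 24 h, with no overlap at either time. Ly6a had 1286, 1009 and 1579 normalised counts with DMSO and 2105, 4443 and 3548 with Senexin B at 16 h, and 1288, 1679 and 1665 with DMSO and 2622, 4920.0 and 4337 with Senexin B at 24 h. Replicate 1 was the lowest treated library at both times and still lay above the DMSO libraries. The log2 fold change of Ly6a was 1.38 (SE 0.259) at 16 h and 1.36 (SE 0.257) at 24 h, whereas in the genotype libraries its groups overlapped.

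Anxa1 had 229.7, 181 and 256 normalised counts with DMSO and 329, 417 and 437 with Senexin B at 16 h, and 356, 296 and 301 with DMSO and 501, 615 and 498 with Senexin B at 24 h. All treated libraries were above their controls, by a log2 fold change of 0.83 (SE 0.146) at 16 h and 0.76 (SE 0.141) at 24 h. Msln had 1225, 835 and 754 normalised counts with DMSO and 1031, 1164 and 1180.0 with Senexin B at 16 h, and 1669, 1325 and 1157 with DMSO and 1192, 1667 and 1359 with Senexin B at 24 h. Its groups overlapped at both times, with log2 fold changes of 0.26 (SE 0.173) and 0.02 (SE 0.170). Leaving out 1 library gave 0.13 to 0.50 at 16 h and −0.12 to 0.18 at 24 h. Il33 had 13.2, 16.6 and 16.9 normalised counts with DMSO and 13.4, 13.2 and 23.5 with Senexin B at 16 h, and 21.3, 22.4 and 18.1 with DMSO and 9.24, 7.10 and 8.12 with Senexin B at 24 h. At 24 h every treated library was below every DMSO library, a log2 fold change of −1.32 (SE 0.301), the opposite side from the double knockout, where Il33 lay above WT. The genotype and inhibitor experiments differ in library preparation and in time without the kinases, and the difference between them was not tested.

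**Figure D2:**
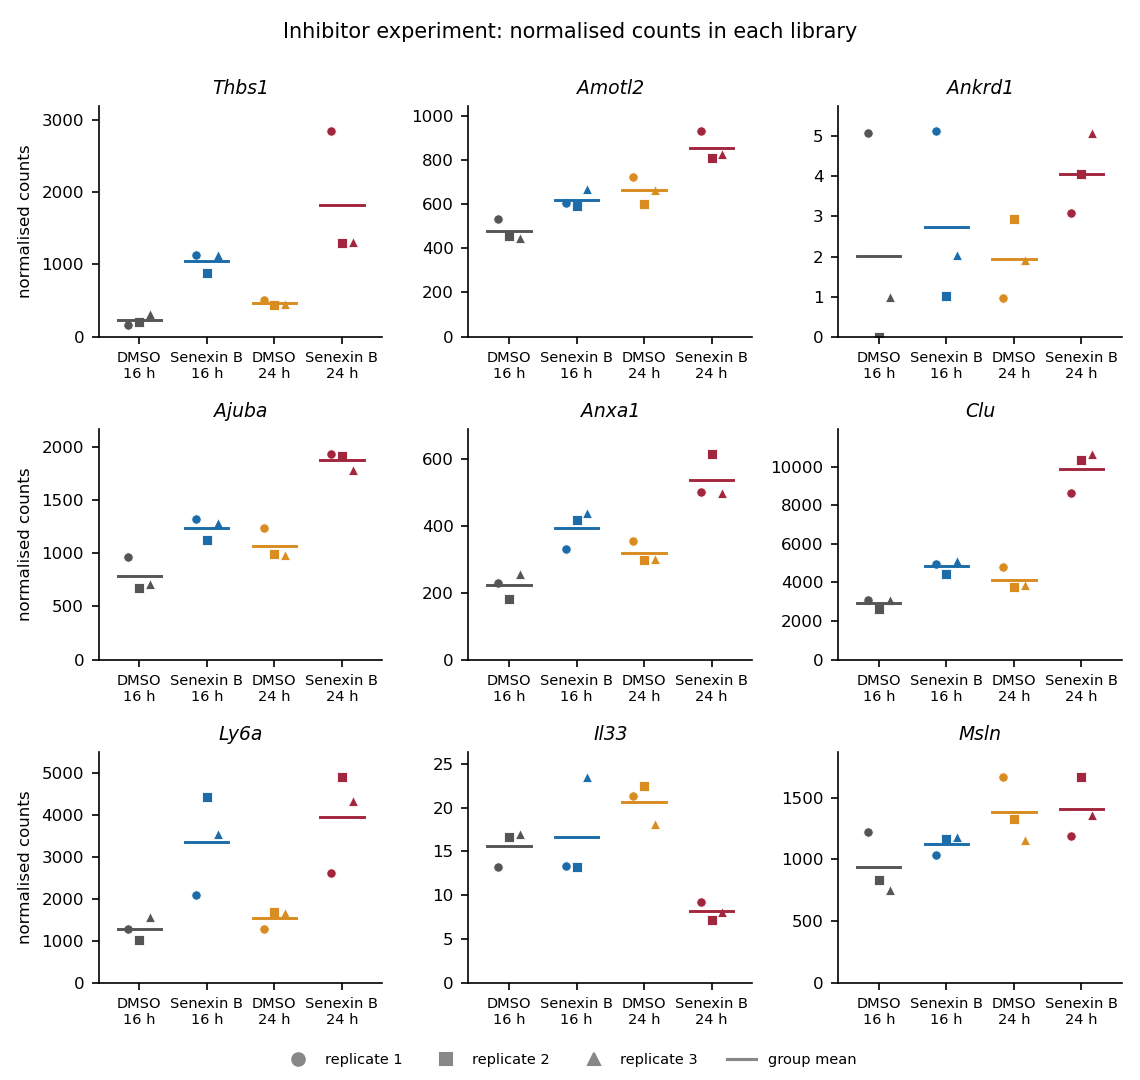
Normalised counts (vertical axes, linear from 0) of the 9 genes in each library of the inhibitor experiment, with DMSO and Senexin B at 16 h and at 24 h along the horizontal axis, 1 point per library shaped by replicate number and a bar at the mean of 3 libraries. Clu lay at 8613 to 10670 with Senexin B at 24 h, above all other libraries, Il33 lay at 7.10 to 9.24 there, below all others, and Ankrd1 stayed at or under 5.14.

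Of the companion lists, 13 YAP/TAZ targets and 12 regenerative genes were tested in the inhibitor experiment. At 16 h, 9 of the 25 rose with Senexin B and 1 fell, beside 4.36% and 3.39% of all 15467 genes tested, and their median log2 fold change was 0.28 against −0.01 over all genes. In the fits that left out 1 library, 235 to 829 of all genes fell, and a companion gene only without replicate 2 of DMSO. At 24 h, 6 rose and 3 fell, beside 14.8% and 12.7% of all genes, and the median was 0.15 against 0.00 over all genes (0.0011). The 3 that fell were 1 without replicate 1 or replicate 3 of DMSO or replicate 2 or replicate 3 of Senexin B, while all genes that fell went from 1959 to 1357, 1453, 1139 and 1262 in that order, and without replicate 1 of Senexin B 5 rose and 5 fell, beside 2072 and 1733. The 6 that rose, and the 9 called in all, became 5 and 6 without replicate 3 of Senexin B. Of the 8 members tested, 6 passed as higher at 16 h, and 6 as higher and 1 as lower at 24 h, from which nothing is read. The regenerative genes made up most of the higher ones, 6 at 16 h and 4 at 24 h. Anxa3 had 1395, 1220 and 1542 normalised counts with DMSO and 2741, 3233 and 3282 with Senexin B at 16 h. Its log2 fold change was 1.16 (SE 0.0934, adjusted p = 1.04e-05) at 16 h and 1.30 (SE 0.0933, adjusted p = 1.55e-06) at 24 h, higher in 3 of 3 libraries each time. Areg, the growth factor amphiregulin and a ligand of the EGF receptor, had 1318, 1046 and 1422 normalised counts with DMSO and 2717, 3045 and 2863 with Senexin B at 16 h. It rose by 1.19 on the log2 scale (SE 0.106, adjusted p = 2.06e-05) at 16 h and by 1.17 (SE 0.106, adjusted p = 8.2e-06) at 24 h, higher in 3 of 3 libraries each time. Ly6c1 had 27.1, 34.1 and 36.2 normalised counts with DMSO and 99.6, 164 and 132 with Senexin B at 24 h, and rose by 2.02 on the log2 scale (SE 0.230, adjusted p = 5.79e-05). Of 4 fibroblast and smooth muscle markers tested, Vim also rose at 24 h, from 85.3, 103 and 108 normalised counts to 132, 146 and 152 (log2 fold change 0.54, SE 0.145, adjusted p = 0.0139), a call lost without replicate 1 of DMSO or replicate 3 of Senexin B (adjusted p up to 0.0621), and with no filter 4 of 8 rose. The summed list was at 183, 203 and 202 with DMSO and 219, 250 and 329 with Senexin B, and its part in the companion counts was not tested.

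Ccn1 had 231, 153 and 162 normalised counts with DMSO and 321, 246 and 292 with Senexin B at 16 h, and 224, 181 and 213 with DMSO and 533, 391 and 365 with Senexin B at 24 h. It rose in 3 of 3 libraries at both times, by 0.65 on the log2 scale (SE 0.178, adjusted p = 0.0376) at 16 h and by 1.06 (SE 0.172, adjusted p = 0.000653) at 24 h. The call at 16 h was lost without replicate 2 or replicate 3 of DMSO or without replicate 1 or replicate 3 of Senexin B, where the adjusted p reached 0.139, and with only the groups compared in the fit (0.0568). The call at 24 h held in each of these fits. Dock5, an exchange factor for Rac, fell by 0.48 on the log2 scale at 24 h (SE 0.0759, adjusted p = 0.000551), from 2275, 2097 and 2133 normalised counts to 1603, 1542 and 1527, whereas it rose in the double knockout by 0.48 (SE 0.0948, adjusted p = 0.00606). Ccn2 and Spp1 (osteopontin) had at most 2.03 normalised counts in any inhibitor library and were not tested there. The count of 10 companion genes at 16 h was 5 without replicate 3 of Senexin B and 6 without replicate 2 of Senexin B, replicate 2 of DMSO or replicate 3 of DMSO, while the calls over all genes went from 1198 to 676, 657, 811 and 898 in that order. Anxa3, Anxa8, Areg and Ly6c1 passed in each fit that left out 1 library at both times.

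No companion gene, and 0% of all genes, passed the edgeR test of a difference in the Senexin B effect between 24 h and 16 h. There were 7 companion genes at an unadjusted p under 0.05, beside 12.9% of all genes. By DESeq2 0 companion genes passed, beside 63 of all genes (0.407%), with replicate number as a block 0, beside 60 (0.388%), and with no filter 1, beside 121 (0.426%). The DMSO groups themselves differed by time: 24 h against 16 h, 3 companion genes rose and 1 fell, beside 4.52% and 6.59% of all genes. Of the 8 members tested, 5 passed as higher, from which nothing is read. Cxadr, a tight junction receptor, had 4504, 4631 and 4579 normalised counts at 16 h and 5986, 5707 and 6121 at 24 h, a log2 fold change of 0.38 (SE 0.0619, adjusted p = 0.00372), higher in 3 of 3 libraries. Ptpn14, a phosphatase that binds YAP, rose by 0.75 on the log2 scale (SE 0.149, adjusted p = 0.00819), higher in 3 of 3 libraries. The count of 4 was 10 without replicate 1 of DMSO at 16 h, and 2 without replicate 3 of DMSO at 16 h or replicate 1 of DMSO at 24 h, while the calls over all genes went from 1719 to 2296, 434 and 522 in that order. In the fits that left out 1 library, 250 to 1195 of all genes fell, and companion genes only without replicate 2 of DMSO at 16 h. Of 4 fibroblast and smooth muscle markers tested, Pdgfra also rose, from 13.2, 9.76 and 5.98 normalised counts at 16 h to 27.1, 28.3 and 23.8 at 24 h (log2 fold change 1.44, SE 0.312, adjusted p = 0.0124), a call lost without replicate 3 of DMSO at 16 h (adjusted p = 0.0679) and not made by DESeq2. The summed list went from 146, 171 and 153 to 183, 203 and 202, and its part was not tested.

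**Figure D3:**
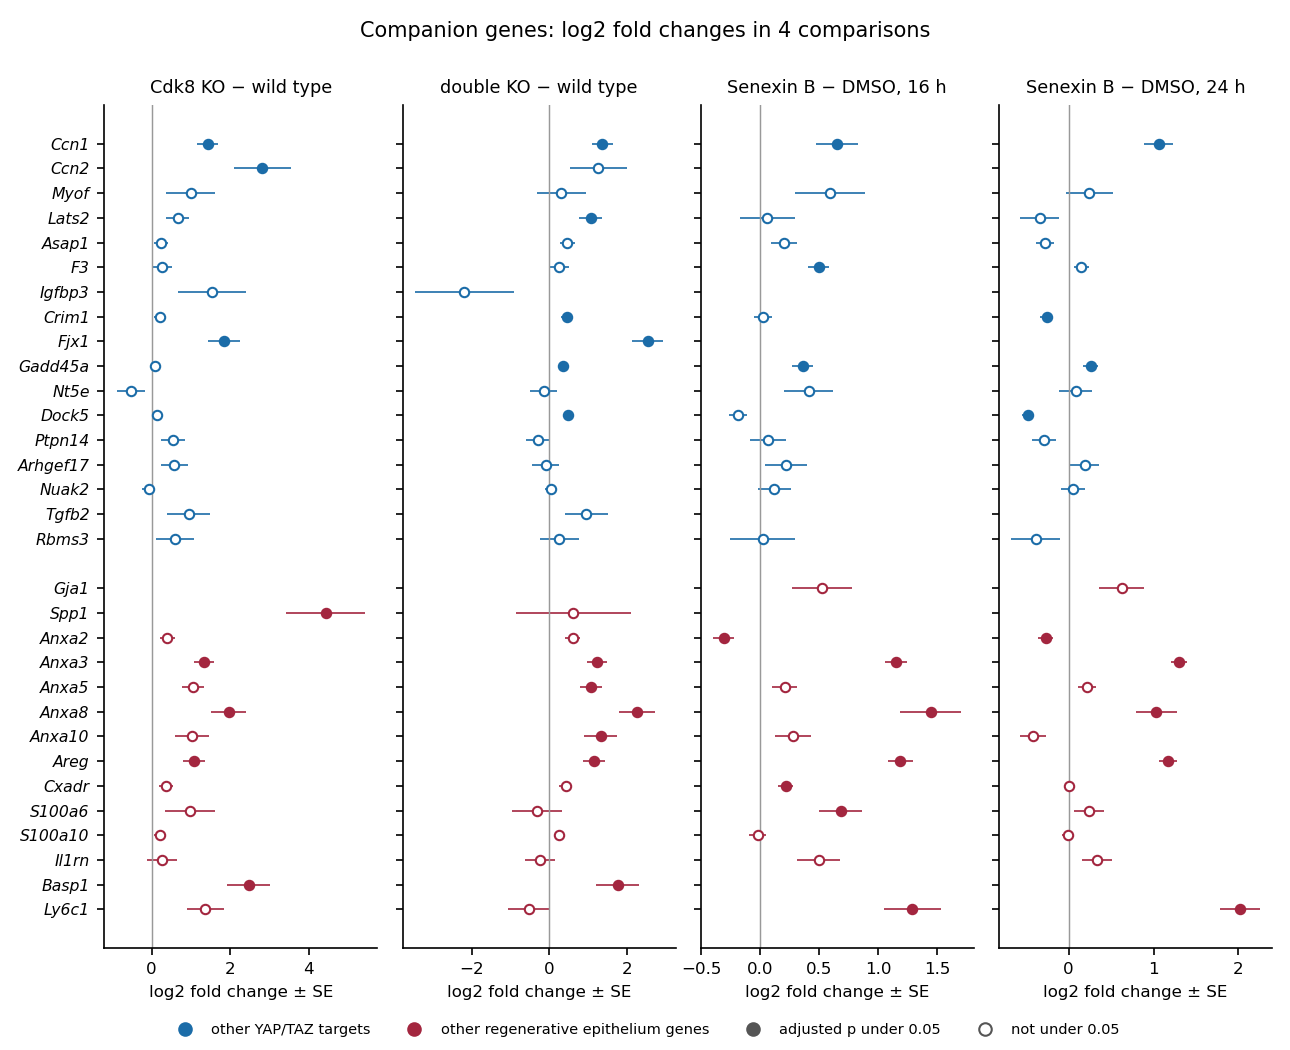
Log2 fold changes with SE (horizontal axes, whose ranges differ between panels) of companion genes tested in 4 comparisons, all but 1 of them drawn, 1 gene per line, blue for YAP/TAZ targets and red for regenerative genes, filled where the adjusted p was under 0.05. Ccn1 is filled in all 4 panels, at 1.43, 1.37, 0.65 and 1.06 from left to right, and genes with no point had too few counts in that experiment.

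The regulators of the pathway were read next. Yap1 had 1923 to 2160.0 normalised counts in the 12 genotype libraries and 3285 to 3764 in the 12 inhibitor libraries, and Yap1, Wwtr1 and Tead3 passed the test in no comparison. The log2 fold change of Yap1 was 0.10 (SE 0.0663, adjusted p = 0.397) in the Cdk8 knockout, 0.03 (SE 0.0664, adjusted p = 0.807) in the double knockout and 0.04 (SE 0.0621, adjusted p = 0.672) with Senexin B at 24 h. Wwtr1 had 80.6 to 255 normalised counts in the genotype libraries. Of the 21 Hippo and TEAD genes, none passed by edgeR in the Cdk8 knockout (6 at an unadjusted p under 0.05, beside 21.4% of all genes, and 3 by DESeq2, beside 8.45%). In the double knockout 1 rose and 1 fell against WT, beside 9.41% and 7.90% of all genes, and 2 rose and 3 fell without both doubtful libraries, beside 10.3% and 8.69%. Vgll4, which competes with YAP for TEAD, fell by 0.47 on the log2 scale (SE 0.082, adjusted p = 0.00325), from 1528, 1520.0 and 1565 normalised counts to 1139, 1140.0 and 1060.0. Wwc1, the scaffold KIBRA that promotes LATS activity, rose by 0.43 (SE 0.0997, adjusted p = 0.0125), and its adjusted p reached 0.0538 when replicate 1 or replicate 2 of WT was left out. Between the double and the Cdk19 knockout 3 rose and 1 fell, near or under the 14.4% and 11.0% of all genes, and 1 of the 3, Sav1, passed in no fit that left out 1 library. Without both doubtful libraries 1 rose and 3 fell, beside 15.1% and 13.4%. No gene of the list passed by edgeR in the Cdk19 knockout, with or without them (1 at an unadjusted p under 0.05, beside 10.8% of all genes, and 0 by DESeq2, beside 2.01%).

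With Senexin B at 16 h, 2 of the 21 Hippo and TEAD genes rose and none fell, beside 4.36% and 3.39% of all genes. At 24 h 3 rose and 3 fell, beside 14.8% and 12.7% of all genes. The fits that left out 1 library gave 2 to 4 that rose and 0 to 2 that fell, with 0 without replicate 2 of Senexin B. Tead4 had 263, 246 and 221 normalised counts with DMSO and 348, 399 and 399 with Senexin B at 16 h, and 327, 314 and 335 with DMSO and 451, 468 and 456 with Senexin B at 24 h. It rose in 3 of 3 libraries at both times, by 0.65 on the log2 scale (SE 0.0927, adjusted p = 0.00069) and by 0.49 (SE 0.0901, adjusted p = 0.00142). Tead2 rose at 24 h by 0.72 (SE 0.125, adjusted p = 0.000975), higher in 3 of 3 libraries, from 316, 337 and 349 normalised counts to 493, 597 and 567. Vgll4 lay the other way at 24 h, at 3517, 3581 and 3766 normalised counts with DMSO and 3318, 3190 and 3095 with Senexin B. Tead1 rose at 16 h by 0.35 (SE 0.0727, adjusted p = 0.0086) and its adjusted p was 0.0526 without replicate 3 of Senexin B. In DMSO alone, 24 h against 16 h, 3 genes of the list rose, beside 4.52% of all genes, Tead1 by 0.54 (SE 0.0725, adjusted p = 0.00157).

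Genes of crypt base stem cells were read as well. Of 10 such genes, 7 fell in the double knockout against WT, beside 7.90% of all genes, and 8 in the double against the Cdk19 knockout, beside 11.0%. Without both doubtful libraries these were 7 and 10. In the Cdk8 knockout 2 fell, beside 2.36%, of which Cdca7 passed in 1 of the 6 fits that left out 1 library, and the summed normalised counts of the list overlapped, at 68560, 66660 and 62590 (WT) and 64560, 80390 and 55620 (Cdk8 knockout). None passed as higher in these 3 comparisons. In the Cdk19 knockout no gene of the list passed by edgeR (6 at an unadjusted p under 0.05, beside 10.8% of all genes, and 4 by DESeq2, beside 2.01%), and 4 rose without both doubtful libraries, beside 2.17% of all genes. Lgr5, the receptor that marks these cells, was at normalised counts of 6022, 6039 and 5596 in WT, 3171, 3952 and 2608 in the Cdk8 knockout, 7453, 8675 and 8861 in the Cdk19 knockout, and 2330.0, 2251 and 2952 in the double knockout. It fell by 0.86 on the log2 scale (SE 0.148, adjusted p = 0.00801) in the Cdk8 knockout and by 1.23 (SE 0.149, adjusted p = 0.00055) in the double knockout, lower in 3 of 3 libraries each time. Tnfrsf19 of the same list lay the other way, with every library of both groups above WT. Its normalised counts were 146, 124 and 102 in WT, 265, 235 and 265 in the Cdk8 knockout, and 152, 238 and 328 in the double knockout. With Senexin B, 1 stem cell gene rose and 1 fell at 16 h, beside 4.36% and 3.39% of all genes, and 2 rose and 2 fell at 24 h, beside 14.8% and 12.7%. With replicate number as a block 3 rose and 1 fell at 16 h, beside 1158 and 1135 of the 15467 genes. The fall at 16 h, that of Lgr5, passed in 1 of the 6 fits that left out 1 library, that without replicate 1 of DMSO. The rises at 24 h were 0 without replicate 2 of DMSO and 1 in the other 5 such fits, Cdca7 passing in none, and 3 fell without replicate 1 of Senexin B. Lgr5 fell at 24 h by 0.97 on the log2 scale (SE 0.123, adjusted p = 0.000112) in 3 of 3 libraries.

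Ly6a is also known as an interferon-induced gene, so 8 interferon-stimulated genes were read beside it. Their summed level was 11400, 12980 and 17480 normalised counts with DMSO and 5067, 17210.0 and 13860.0 with Senexin B at 16 h, and 8998, 21350 and 19060 with DMSO and 4227, 11810.0 and 14030.0 with Senexin B at 24 h. Replicate 1 was the lowest library for them in each of the 4 groups, and the lowest treated library for Ly6a at both times. Against DMSO none of them passed by edgeR at 16 h (1 at an unadjusted p under 0.05, beside 22.5% of all genes, and 0 by DESeq2, beside 9.70%) and 2 fell at 24 h, beside 12.7%, or 1 without replicate 2 or replicate 3 of DMSO or replicate 1 or replicate 2 of Senexin B. With replicate number as a block, since same-numbered libraries deviated together, 2 fell at 16 h, beside 1135 of the 15467 genes, and 7 at 24 h, beside 2726, and the sum at 24 h was lower with Senexin B in each of the 3 pairs. Ly6a was above DMSO in every library. In the genotype libraries they summed to 488, 601 and 399.9 normalised counts in WT, 1142, 604 and 2866 in the Cdk8 knockout, 7492, 2951 and 988 in the Cdk19 knockout, and 994, 1928 and 2023 in the double knockout. All knockout libraries lay above WT in this sum, and the libraries of a group differed widely. In the Cdk19 knockout their median log2 fold change was 3.22 and none passed by edgeR, though all 8 had an unadjusted p under 0.05, beside 10.8% of all genes, and DESeq2 called 7, beside 2.01%, and 1 rose without both doubtful libraries, beside 2.17%. In the Cdk8 knockout the median was 1.89 and none passed by edgeR (5 at an unadjusted p under 0.05, beside 21.4% of all genes, and 3 by DESeq2, beside 8.45%). In the double knockout 1 rose against WT, beside 9.41% of all genes, which of the fits that left out 1 library held only in that without replicate 1 of the double knockout. Against the Cdk19 knockout 2 fell, beside 11.0%, or 4 without replicate 3 of the Cdk19 knockout and 1 without its replicate 1 or without any 1 library of the double knockout. None passed in either comparison without both doubtful libraries. Ly6a ranged from 168 to 227 in the Cdk19 knockout. The part of interferon signalling in Ly6a was not tested.

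Msln is also a marker of mesothelium, so 6 other mesothelial markers were read. They summed to 2142, 1863 and 2145 normalised counts with DMSO and 944, 869 and 871 with Senexin B at 16 h, and to 1651, 1361 and 1405 with DMSO and 600.4, 328 and 339 with Senexin B at 24 h. Upk3b made up 96.9% to 98.7% of these sums, Bnc1 had no count, and 4 of the 6 had fewer than 10 counts in every inhibitor library. Of the 2 markers tested there, 2 fell by edgeR at 16 h, beside 3.39% of all genes, and 1 by DESeq2. At 24 h 1 fell, beside 12.7% of all genes. Upk3b fell with Senexin B by 1.20 on the log2 scale (SE 0.170, adjusted p = 0.000654) at 16 h and by 1.83 (SE 0.179, adjusted p = 1.66e-05) at 24 h, lower in 3 of 3 libraries each time, while the Msln groups overlapped. In the genotype libraries Upk3b, the only mesothelial marker tested there, passed in no comparison.

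Compared per length, as CPM (counts scaled to library size) per 1000 bases of exon, Clu had the highest level of the 9 genes in all 4 genotype groups. In WT it was 78.3 ± 12.5 (SD, n = 3), followed by Msln at 9.86 ± 2.18, Ly6a at 9.50 ± 2.68, Ajuba at 9.46 ± 0.724 and Anxa1 at 8.99 ± 1.96, which did not differ beyond their spread. Thbs1 (5.97 ± 0.149) and Amotl2 (3.66 ± 0.471) came next, and Il33 (0.128 ± 0.0747) and Ankrd1 (0.0792 ± 0.0274) were lowest and overlapped. In the Cdk8 knockout Anxa1 stood at 31.9 ± 13.2 per length, behind Clu at 145 ± 51.0, and overlapped Msln. Msln, Thbs1, Ly6a and Ajuba, at 21.7 to 15.0, overlapped one with the next. In the double knockout the level of Clu (68.2 ± 22.2) overlapped that of Anxa1 (33.5 ± 15.7), and Ankrd1 was lowest, at 0.365 ± 0.202. In the inhibitor experiment Ly6a came first in each of the 4 groups. Its level per length was 38.7 ± 8.55 with DMSO and 101 ± 35.4 with Senexin B at 16 h, and 46.3 ± 6.65 and 119 ± 35.8 at 24 h. Clu followed at 30.9 ± 2.86 and 50.8 ± 3.67 at 16 h, and at 43.6 ± 6.03 and 104 ± 11.7 at 24 h, overlapping Ly6a in each group except Senexin B at 16 h. Il33 and Ankrd1 were lowest in each of the 4 inhibitor groups, at 0.102 to 0.258 and at 0.0242 to 0.051.

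The genes most like each member were those whose lower Pearson correlation of the 2 experiments was highest, on log2 CPM, among 14253 genes. Each correlation is over 12 libraries, which share groups and preparation. Thbs1 was most like Flna, which encodes the actin crosslinker filamin A (r = 0.957 in the genotype and 0.964 in the inhibitor libraries), then Vangl1 and Endod1. For Ajuba the closest was Krt23, a keratin (0.979 and 0.935), then Pear1 and Atg9b, and for Msln it was the serpin Serpinb9b (0.940 and 0.954), then Serpinb6b and Fgd3. Anxa1 was closest to Hdc (0.945 and 0.924), then Fbln2 and Thbs1, the only member found among these neighbours. Clu was closest to Cd14, a receptor for bacterial lipopolysaccharide (0.880 and 0.952), which was also second for Ly6a (0.806 and 0.866) behind Sugt1. Amotl2 was closest to Btg2 (0.943 and 0.882) and Il33 to Dram2 (0.928 and 0.894). Ankrd1 was not tested in the inhibitor libraries and has no such list.

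TEAD factors bind the core motif GGAATG, so the promoters were searched for these letters and for CATTCC, the same motif on the other strand. RefSeq promoter sequences of build GRCm38.p6 were at hand for 5 of the 9 genes, Amotl2, Ankrd1, Ajuba, Anxa1 and Il33, and not for Thbs1, Clu, Ly6a and Msln. In the 250 bases before the start, all 5 held at least 1 match, as did Ccn1, beside 12.6% of all 32851 promoters (4153) and, counted per gene as here, 14.4% of 27025 genes (3880). The AP-1 motif TGACTCA, searched with its reverse complement TGAGTCA, had no match in the 5, beside 4.46% of all promoters and 5.16% of genes. The matches of Amotl2, Ankrd1 and Anxa1 lie within annotated exons of the same genes, which begin before the start used here. A match is a description of letters and not a binding site. The windows of 30 bases around each match are shown to let the motif be seen in its place, on the gene's strand from 5′ to 3′ with the match in capitals. They are Amotl2 at chr9:102717727-102717756 on the plus strand, Ankrd1 at chr19:36120037-36120066 and chr19:36119950-36119979 on the minus strand, Ajuba at chr14:54577830-54577859 and chr14:54577808-54577837 on the minus strand, Anxa1 at chr19:20390890-20390919 on the minus strand, Il33 at chr19:29924970-29924999 and chr19:29945671-29945700 on the plus strand, before separate starts, and Ccn1 at chr3:145650071-145650100 on the minus strand.
Amotl2: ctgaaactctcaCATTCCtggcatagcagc
Ankrd1, farther from the start: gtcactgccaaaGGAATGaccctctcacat
Ankrd1, nearer to the start: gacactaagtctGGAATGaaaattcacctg
Ajuba, farther from the start: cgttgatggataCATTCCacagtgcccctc
Ajuba, nearer to the start: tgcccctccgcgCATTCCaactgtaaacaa
Anxa1: actgcactgaacCATTCCtgtgaggaataa
Il33, first start: gtaacattggcaGGAATGctattagcttat
Il33, second start: tacacaccctcaCATTCCattcatatcgct
Ccn1: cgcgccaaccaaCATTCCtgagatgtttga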

How the data were processed

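Reads per gene came from tables deposited by the authors, who aligned reads with STAR 2.6.0c per the labels (2.6.0a in the study's methods) to GRCm38.p6. The counts of the second-strand column were used as deposited by the authors for all 24 libraries. Symbols were matched to the tables' Ensembl identifiers. The members and all gene lists were chosen with earlier results of these data known. Some list genes enter the counts and are not reported here by name. Each experiment of 12 libraries was fitted in R 4.3.3 with edgeR 4.0.16 (TMM scaling, filterByExpr, quasi-likelihood test), with p-values adjusted over all genes tested by Benjamini and Hochberg and a threshold of 0.05. The standard error is the log2 fold change divided by the root of its F. Named genes are the members, Ccn1, Ccn2, Yap1, Wwtr1 and TEAD factors, up to 4 called genes per list and comparison with the largest changes, and the 3 genes most like each member. Ly6c1 in the double against the Cdk19 knockout, Pdgfrb without both doubtful libraries, Tnfrsf19 in the Cdk8 and double knockouts, and Axin2 are outside that rule. They were named after their values were seen. The targeted genes, Esr1 and marker genes named only for their levels are also outside it.

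Alternatives were DESeq2 1.42.0 (its size factors, its Wald test), no filter or at least 10 counts in every library, counts regardless of strand, replicate number as a block, only the groups compared, and leaving out each library. Leaving out both libraries at the WT level of Cdk19 was added after seeing the data. Same-numbered libraries correlated in deviations from their group means between DMSO and Senexin B (r of 0.303, 0.101 and 0.110 at 16 h, 0.377, 0.137 and 0.187 at 24 h). Between DMSO at 16 h and at 24 h 2 of the 3 pairs did (0.366, −0.05 and 0.284), and in no genotype comparison did every pair reach the 0.1 required. By this rule the replicate numbers paired the libraries in both Senexin B comparisons. The fits reported do not use the pairing, except where replicate number is named as a block.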

Additional observations from a re-analysis of the deposited data

Results flagged for a closer look

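Cdk19 knockout and WT differed in the opposite direction from double knockout and Cdk8 knockout for 3 genes of the lists, with every library of the groups apart each time. The share of all genes with this pattern was not counted. Tead2 had 374, 378 and 179.6 normalised counts in WT, 563, 446 and 409 in the Cdk19 knockout, 634, 569 and 578 in the Cdk8 knockout, and 308, 284 and 507 in the double knockout. The difference of effects was −1.30 on the log2 scale (edgeR, adjusted p = 0.150). For Olfm4 it was −1.48 (adjusted p = 0.0843) and for Axin2 it was −0.87 (adjusted p = 0.0583). None of the 3 passed this test with all libraries. Without both libraries at the WT level of Cdk19, left out after seeing the data, the differences were −1.46, −1.60 and −0.999 (adjusted p = 0.0431, 0.0134 and 0.00449). The genes were picked for this pattern, so nothing is read from these p values.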

How the results depend on the processing

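No called result changed direction under any alternative run. Of the companion counts under an alternative, 109 stayed within 1.5 times the value reported and 36 did not. With at least 10 counts in every library the Cdk8 knockout had 5 of 24 companion genes in place of 9 of 31, beside 707 of all genes in place of 804. By the DESeq2 Wald test the count was 1 for the Cdk19 knockout, 1 for double against Cdk8 knockout, 2 for departure from additivity and 9 for DMSO over time, and with no filter these were 4, 4, 7 and 9, and 1 for the difference of the Senexin B effects. Without both libraries at the WT level of Cdk19 the first 3 were 5, 1 and 5. With only the groups compared in the fit, Senexin B at 16 h had 5 and DMSO over time 2. With the replicate block, DMSO over time had 10 companion genes in place of 4, beside 3281 of all genes in place of 1719. Senexin B had 10 at 16 h as without the block, beside 2293 of all genes in place of 1198, and 11 in place of 9 at 24 h, beside 5712 in place of 4252. The cause was not tested. Leaving out each library gave 1 to 10 for the Cdk8 knockout, 0 to 4 for the Cdk19 knockout, 5 to 13 for the double knockout, 0 to 4 for double against Cdk8 knockout, 14 to 20 for double against Cdk19 knockout, 0 to 5 for departure from additivity, 5 to 11 and 6 to 10 for Senexin B at 16 h and 24 h, 2 to 10 for DMSO over time, and 0 to 0 for the difference of effects. Of the members' alternative values, 911 moved by less than the spread between replicates and 6 by more. Counting regardless of strand gave Ankrd1 a log2 fold change of 3.94 in the Cdk8 and 2.88 in the double knockout. With 3 libraries a group, small changes can be missed, and Ankrd1 and Il33 rest on few counts.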
